A study of Mus musculus with 16 samples.

Results

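Mouse pre-B cells that carried BCR-ABL1 and lacked SHP2 were compared with pre-B cells that had neither change. The comparison sets both factors against the starting state at once. It used 8 of the 16 libraries of the series, namely 4 BCR-ABL1 SHP2-null libraries (labelled BCR-ABL WT (+/+) and SHP2 NULL (-/-)) and 4 untransformed SHP2 wild-type libraries (labelled BCR-ABL NULL (-/-) and SHP2 WT (+/+)). The labels give no drug and no time for either group. The sources used here do not give how BCR-ABL1 was introduced, how Ptpn11 was deleted, or whether libraries of 1 group stem from different animals or cultures. The p-values therefore measure only the spread among these libraries, and part of it may be technical. The remaining 8 libraries held BCR-ABL1 SHP2 wild-type cells and untransformed SHP2-null cells, 4 of each. Levels are FPKM (fragments mapped to a transcript, corrected for its length and for the size of the library), and 10003 of 23279 symbols reached 1 FPKM in at least 4 of the 8 libraries.

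Pre-B cells are bone marrow precursors that have begun to rearrange immunoglobulin genes. They grow under interleukin-7, which signals through JAK1, JAK3 and STAT5, and under the pre-B cell receptor. BCR-ABL1, the fusion kinase of Philadelphia chromosome-positive leukaemia, is constantly active and drives STAT5, PI3K and RAS signalling. SHP2, encoded by Ptpn11, is a tyrosine phosphatase that passes signals from receptors and kinases to RAS and ERK. Active ERK switches on its own brakes, among them the DUSP phosphatases and the SPRY and SPRED adaptors, together with ETS factors such as ETV5.

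Summed FPKM ran from 348923 to 424096 over the 8 libraries, and the depth is unknown because FPKM hold no read numbers. All 17 precursor B markers examined were above the filter, and their summed level was 3461 to 4098 FPKM in BCR-ABL1 SHP2-null libraries, against 2985 to 3307 FPKM in untransformed SHP2 wild-type libraries. Igll1, a surrogate light chain gene of B-lineage precursors, averaged 642.6 FPKM in BCR-ABL1 SHP2-null cells and 586.3 FPKM in untransformed SHP2 wild-type cells. Libraries of 1 group correlated at 0.975 to 0.991 (Spearman, across genes), and libraries of different groups at 0.959 to 0.983. Rpph1, an RNA that is not polyadenylated, spanned 1193 to 11904 FPKM over the 8 libraries. Among the other 8 libraries, which share the fit, untransformed SHP2-null replicate 2 stood apart with 403 FPKM of Lyz2, the lysozyme gene, where the other 3 libraries of its group had 6.08, 12.5 and 34.3 FPKM.

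Ptpn11 (chr5:121130533-121191397, GRCm38) checked the SHP2 label. It stood at 3.56, 3.56, 6.07 and 4.88 FPKM in the 4 BCR-ABL1 SHP2-null libraries, against 16.7, 17.6, 16.1 and 16.5 FPKM in the 4 untransformed SHP2 wild-type libraries. Every null library lay below every wild-type library, and the values leave 27% of the wild-type mean. The means differed by -12.2 FPKM (exact two-sided permutation test, p = 0.0286, the smallest that 70 arrangements allow). These RNA values say nothing of how much protein was left. Abl1 averaged 14.8 ± 2.34 FPKM in BCR-ABL1 SHP2-null cells and 16.2 ± 0.662 FPKM in untransformed SHP2 wild-type cells (SD, n = 4 each), with a limma adjusted p of 0.446. Gene-level values do not separate the fusion transcript from the mouse genes, so the BCR-ABL1 label was not checked this way. Bcr, a GTPase regulator whose gene is the other partner of the fusion, averaged 6.24 ± 0.855 FPKM in BCR-ABL1 SHP2-null cells and 9.06 ± 1.14 FPKM in untransformed SHP2 wild-type cells (limma adjusted p = 0.0221). That call was lost without BCR-ABL1 SHP2-null replicate 0 (0.0616) or 2 (0.0781) and without untransformed SHP2 wild-type replicate 2 (0.0799) or 3 (0.0502).

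Of the 10003 genes, 1068 (10.7%) changed (limma adjusted p below 0.05), 664 of them higher (6.64%) and 404 lower (4.04%) in BCR-ABL1 SHP2-null cells. Most changes were small. The median size was 0.44 on the log2 scale among the higher genes and 0.46 among the lower genes, and 103 genes (1.03%) changed by at least 2-fold. In 1711 genes (17.1%) the groups did not overlap, 991 with the BCR-ABL1 SHP2-null libraries above (9.91%) and 720 with them below (7.2%). With the replicate number as a block the count of changed genes was 2269 (22.7%, with 13.2% higher and 9.47% lower), and it was 627 without BCR-ABL1 SHP2-null replicate 2 and 625 without untransformed SHP2 wild-type replicate 2. The filter let through 82 genes in which 1 group had no library at 1 FPKM. These had to differ to be tested, and 71 of them were called, so their p-values are descriptive. Dusp6, Etv5, Spred2, Tmem119, Hspb8, Tmed6, Igj, Itgal, Cma1 and Cpa3 had no BCR-ABL1 SHP2-null library at 1 FPKM. Nupr1, Khdrbs3, Nlrp6, Gab3 and Cd28 had no untransformed SHP2 wild-type library at that level. The shares over all genes, 10.7% called and 22.7% with the block, are the background for the counts of every gene list.

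**Figure D1:**
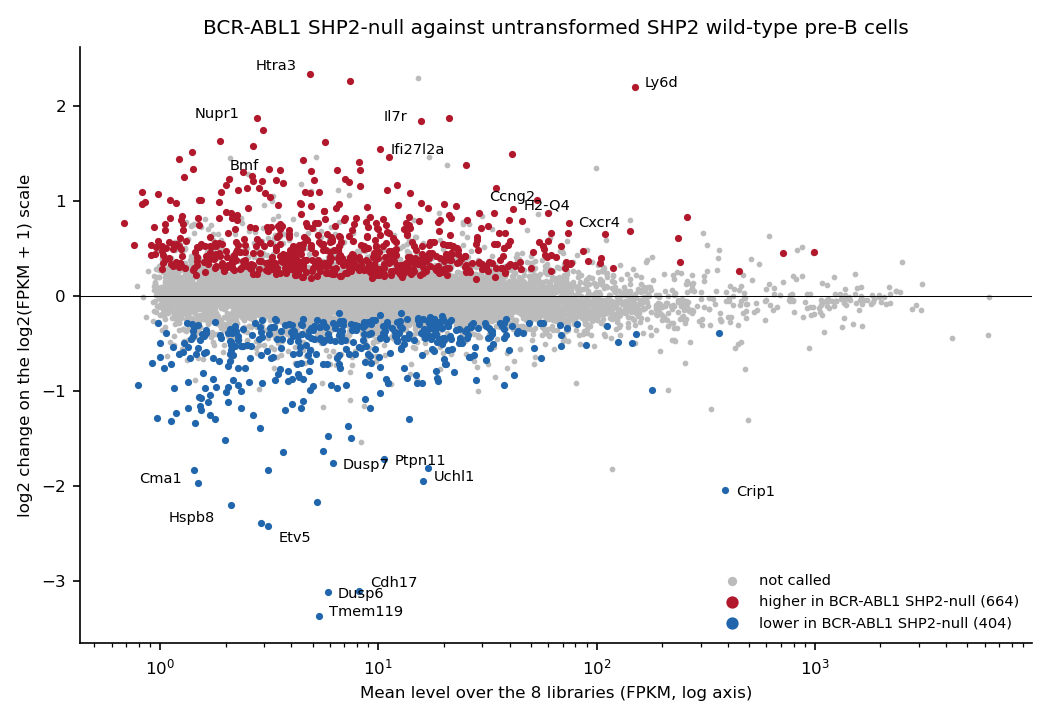
Change against level for the 10003 genes tested. The horizontal axis is the mean of 8 libraries in FPKM (log axis) and the vertical axis the change on the log2(FPKM + 1) scale, BCR-ABL1 SHP2-null minus untransformed SHP2 wild type. Red points are the 664 genes called higher, blue points the 404 called lower and grey points the rest. The falls reach further (Tmem119, Dusp6 and Cdh17 below -3) than the rises (Htra3 at 2.34).

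The ERK brakes were among the strongest falls. Dusp6, the phosphatase that takes the phosphate off ERK in the cytoplasm, read 0.255, 0.446, 0.421 and 0.501 FPKM in BCR-ABL1 SHP2-null libraries, against 10.1, 9.03, 14.8 and 11.2 FPKM in untransformed SHP2 wild-type libraries. The groups were far apart. The change was -3.11 ± 0.24 (SE) on the log2 scale, and 3.59% of the wild-type mean remained (limma adjusted p = 1.32e-06). Dusp7, a related ERK phosphatase that was not on the list of ERK genes, read 1.76, 2.69, 2.13 and 2.65 FPKM in BCR-ABL1 SHP2-null libraries, against 8.74, 10.1, 10.9 and 10.4 FPKM in untransformed SHP2 wild-type libraries, a change of -1.75 ± 0.16 (limma adjusted p = 7.47e-06).

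Etv5, an ETS transcription factor induced by ERK, was at 0.273 to 0.31 FPKM in the 4 BCR-ABL1 SHP2-null libraries and at 5.18 to 7.58 FPKM in the 4 untransformed SHP2 wild-type libraries. Spred2 averaged 0.218 ± 0.0679 FPKM in BCR-ABL1 SHP2-null cells and 2.03 ± 0.401 FPKM in untransformed SHP2 wild-type cells (SD, n = 4 each), a 9.31-fold difference of the means. Both code for parts of the same feedback, and neither had overlapping groups. Its relative Spred1, which holds neurofibromin at the membrane to restrain RAS, fell less, to 7.41 ± 0.669 FPKM in BCR-ABL1 SHP2-null cells, against 14.8 ± 2.13 FPKM in untransformed SHP2 wild-type cells. Spry1, a Sprouty adaptor named after its values were seen, averaged 1.13 ± 0.117 FPKM in BCR-ABL1 SHP2-null cells and 2.35 ± 0.374 FPKM in untransformed SHP2 wild-type cells.

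The list of ERK feedback and response genes held 24 members, of which 8 passed the filter. Of these 8, 5 fell (Dusp6, Etv5, Spred2, Spred1 and Spry1) and 0 rose, which is 62.5% called, against 10.7% over all genes. Their median change was -0.78, where that of all genes tested was 0.01. With the replicate block 5 fell and 0 rose, where 9.47% of all genes fell and 13.2% rose. With the block on the 8 libraries alone, 6 were lower and 1 was higher, where 23.7% of all genes were called. Dusp6, Etv5 and Spred2 passed only through the wild-type libraries, so the count is a description. Dusp5, a nuclear ERK phosphatase, averaged 13.02 FPKM in BCR-ABL1 SHP2-null cells and 10.49 FPKM in untransformed SHP2 wild-type cells (limma adjusted p = 0.385), and Spry2 averaged 1.143 FPKM in BCR-ABL1 SHP2-null cells and 1.525 FPKM in untransformed SHP2 wild-type cells (0.0841). Immediate-early members of the list such as Egr1 and Fos did not reach the filter.

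**Figure D2:**
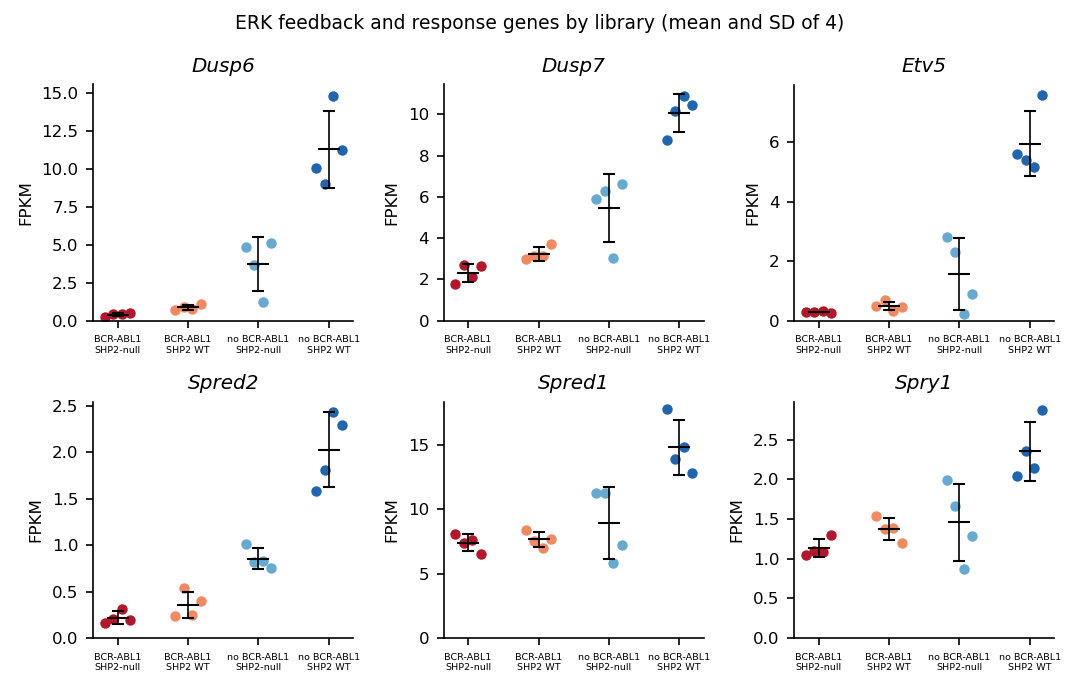
FPKM of 6 ERK feedback and response genes in all 16 libraries (vertical axes, FPKM, starting at 0). Each point is a library, and bars give the mean and SD of 4 libraries per group. In each gene the 4 BCR-ABL1 SHP2-null libraries lie below the 4 untransformed SHP2 wild-type libraries, and the groups with 1 change lie between their means.

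Other parts of the RAS pathway were called in both directions. Of 31 members tested, 5 rose (Gab3, Ksr1, Dok3, Gab2 and Rasgrp1) and 4 fell (Ptpn11, Rasa2, Nf1 and Bcr), with a median of 0.02. These calls were 29% of the list, against 10.7% over all genes. Because Gab3 passed the filter only through the BCR-ABL1 SHP2-null libraries, the count is a description. Gab3, a scaffold of the family that recruits SHP2, averaged 1.52 ± 0.144 FPKM in BCR-ABL1 SHP2-null cells and 0.685 ± 0.0632 FPKM in untransformed SHP2 wild-type cells (SD, n = 4 each). Rasa2 and Nf1, which encode proteins that switch RAS off, averaged 3.23 ± 0.391 and 1.63 ± 0.278 FPKM in BCR-ABL1 SHP2-null cells, against 5.39 ± 0.544 and 2.79 ± 0.56 FPKM in untransformed SHP2 wild-type cells (limma adjusted p = 0.00177 and 0.00561). Without untransformed SHP2 wild-type replicate 2 the list had 1 rise and 3 falls, and without replicate 3 it had 2 and 3.

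Il7r, the interleukin-7 receptor alpha chain on which pre-B cells depend, was the rise with the smallest p among the genes named. It read 24.7, 23.8, 27.6 and 24.1 FPKM in BCR-ABL1 SHP2-null libraries, against 5.3, 6.42, 6.31 and 7.13 FPKM in untransformed SHP2 wild-type libraries. The lowest BCR-ABL1 SHP2-null library was well above the highest wild-type library. The means differed 3.98-fold, and the log2 change was 1.84 ± 0.12 (SE, limma adjusted p = 2.41e-07). Il7r spans chr15:9505788-9530176 on the minus strand (GRCm38, GENCODE M21).

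Promoters were looked up for 36 genes. These were the 15 largest rises, the 15 largest falls (Ptpn11 among them) and Spred2, Spred1, Il2ra, Lrrc32, Pim1 and Gfi1. The last were the other called genes named by rule from the ERK and STAT5 lists. Members named after their values were seen, such as Spry1, were not looked up. Promoter windows from RefSeq (build GRCm38.p6, 250 bases before to 50 after each start) were matched for 27 of the 36 genes. They were searched on both strands for the STAT5-type letters TTCNNNGAA, the E-box CACGTG and the ETS-type letters CCGGAA. The first was found in 3 of the 27 genes, which had 33 windows, and in 8.33% of the 32544 distinct windows searched. The 3 genes (Il7r, Nupr1 and Ifitm3) are all among the 15 largest rises. The STAT5-type letters were not found in the windows of Il2ra, Pim1 and Gfi1, called members of the STAT5 list. The E-box was found in Nupr1, Mgll and Pim1 (7.17% of all windows), and the ETS-type letters in Ptpn11, Serinc5 and Gfi1 (15% of all windows). A match describes the letters only, and no count was tested against the share of all windows. The windows of the 3 raised genes with the STAT5-type letters are shown with that of Dusp6, the strongest fall of the ERK list, and capitals mark the matches (in Nupr1 the E-box and then the STAT5-type letters).
Il7r, chr15:9529827-9530126, minus strand: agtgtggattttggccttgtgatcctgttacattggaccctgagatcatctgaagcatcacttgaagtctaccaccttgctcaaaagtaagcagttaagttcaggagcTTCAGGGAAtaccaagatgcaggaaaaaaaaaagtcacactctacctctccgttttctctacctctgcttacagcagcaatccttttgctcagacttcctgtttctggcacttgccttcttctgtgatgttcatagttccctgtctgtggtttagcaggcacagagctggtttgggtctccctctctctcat
Nupr1, chr7:126625421-126625720, minus strand: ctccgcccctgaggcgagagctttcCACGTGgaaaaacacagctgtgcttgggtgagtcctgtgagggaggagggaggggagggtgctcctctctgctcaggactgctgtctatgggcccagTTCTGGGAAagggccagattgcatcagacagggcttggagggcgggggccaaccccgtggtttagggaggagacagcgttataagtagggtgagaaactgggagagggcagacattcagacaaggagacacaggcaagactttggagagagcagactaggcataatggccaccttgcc
Ifitm3, chr7:141010695-141010994, minus strand: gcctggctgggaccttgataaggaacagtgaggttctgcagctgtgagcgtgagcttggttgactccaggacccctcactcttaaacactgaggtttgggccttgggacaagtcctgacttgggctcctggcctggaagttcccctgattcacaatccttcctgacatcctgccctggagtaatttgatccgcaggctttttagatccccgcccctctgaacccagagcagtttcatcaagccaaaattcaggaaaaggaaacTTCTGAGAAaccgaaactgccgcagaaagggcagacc
Dusp6, chr10:99262981-99263280, plus strand: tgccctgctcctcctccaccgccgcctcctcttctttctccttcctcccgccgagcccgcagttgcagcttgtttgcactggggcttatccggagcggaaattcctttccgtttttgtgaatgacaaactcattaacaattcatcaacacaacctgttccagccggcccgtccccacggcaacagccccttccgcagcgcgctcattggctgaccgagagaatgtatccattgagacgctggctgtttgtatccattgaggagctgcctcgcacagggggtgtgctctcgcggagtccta

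Jak1 fell to 22.2 ± 1.22 FPKM in BCR-ABL1 SHP2-null cells, against 29.6 ± 2.57 FPKM in untransformed SHP2 wild-type cells (SD, n = 4 each, limma adjusted p = 0.0092). Of 16 cytokine receptor and JAK-STAT genes tested, 4 rose and 2 fell (37.5% called, against 10.7% over all genes). Those beside Il7r moved by under 1 on the log2 scale. The count was 3 without BCR-ABL1 SHP2-null replicate 1, 2 or 3, and 2 without untransformed SHP2 wild-type replicate 2 or 3. Among STAT5 targets, Cish, an inhibitor that STAT5 induces, averaged 10.1 ± 1.47 FPKM in BCR-ABL1 SHP2-null cells and 10.4 ± 2.53 FPKM in untransformed SHP2 wild-type cells (limma adjusted p = 0.972). Socs2, another feedback inhibitor, averaged 162 ± 10.9 FPKM in BCR-ABL1 SHP2-null cells and 132 ± 10.5 FPKM in untransformed SHP2 wild-type cells (0.0974, or 0.0269 with the replicate block). Of 15 STAT5 targets tested, 2 were called higher (Il2ra and Pim1) and 2 lower (Gfi1 and Lrrc32), which is 26.7%, against 10.7% over all genes. The block called 8, where 22.7% of all genes were called. With 1 library left out the count was 0 (BCR-ABL1 SHP2-null replicate 1 or 2 or untransformed SHP2 wild-type replicate 2), 1 (BCR-ABL1 SHP2-null replicate 0 or untransformed SHP2 wild-type replicate 3), 2 (BCR-ABL1 SHP2-null replicate 3 or untransformed SHP2 wild-type replicate 0) or 3 (untransformed SHP2 wild-type replicate 1).

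The largest called rise was Htra3, a secreted serine protease. It read 6.13, 8.38, 10.3 and 10.3 FPKM in BCR-ABL1 SHP2-null libraries, against 0.453, 0.791, 1.03 and 1.46 FPKM in untransformed SHP2 wild-type libraries (log2 change 2.34 ± 0.31, limma adjusted p = 0.00019). The gap between groups was wider than either group. Ly6d, a surface protein that marks early commitment to the B lineage, read 197, 274, 233 and 277 FPKM in BCR-ABL1 SHP2-null libraries, against 61.9, 72.2, 40.6 and 39.9 FPKM in untransformed SHP2 wild-type libraries, and was the most abundant of the 15 largest rises. Nupr1, a nuclear stress protein, read 4.04, 2.71, 8.02 and 5.22 FPKM in BCR-ABL1 SHP2-null libraries, against 0.665, 0.602, 0.491 and 0.43 FPKM in untransformed SHP2 wild-type libraries. In all 3 genes the groups were apart (limma adjusted p = 0.000565 for Ly6d and 0.000208 for Nupr1). Nupr1 passed the filter only through the BCR-ABL1 SHP2-null libraries.

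Others in that set were lowly expressed in untransformed wild-type cells. Khdrbs3, an RNA-binding splicing regulator, averaged 2.25 ± 0.456 FPKM in BCR-ABL1 SHP2-null cells and 0.187 ± 0.144 FPKM in untransformed SHP2 wild-type cells (SD, n = 4 each). Nlrp6, which encodes an innate sensor protein, averaged 2.57 ± 0.682 FPKM in BCR-ABL1 SHP2-null cells and 0.232 ± 0.12 FPKM in untransformed SHP2 wild-type cells. Gas7, a gene for an actin-binding protein, averaged 7.04 ± 0.762 FPKM in BCR-ABL1 SHP2-null cells and 1.97 ± 0.379 FPKM in untransformed SHP2 wild-type cells (limma adjusted p = 1.42e-05). The set also held Stxbp6, Gng4, Serinc5, Prg3 and Tph1. Tph1, which encodes an enzyme of serotonin synthesis, averaged 9.19 ± 4.43 FPKM in BCR-ABL1 SHP2-null cells and 2.16 ± 0.822 FPKM in untransformed SHP2 wild-type cells (limma adjusted p = 0.0282). Its call was lost without BCR-ABL1 SHP2-null replicate 2 (0.0937) or 3 (0.0716) and without untransformed SHP2 wild-type replicate 0 (0.0647), 2 (0.0663) or 3 (0.0551).

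**Figure D3:**
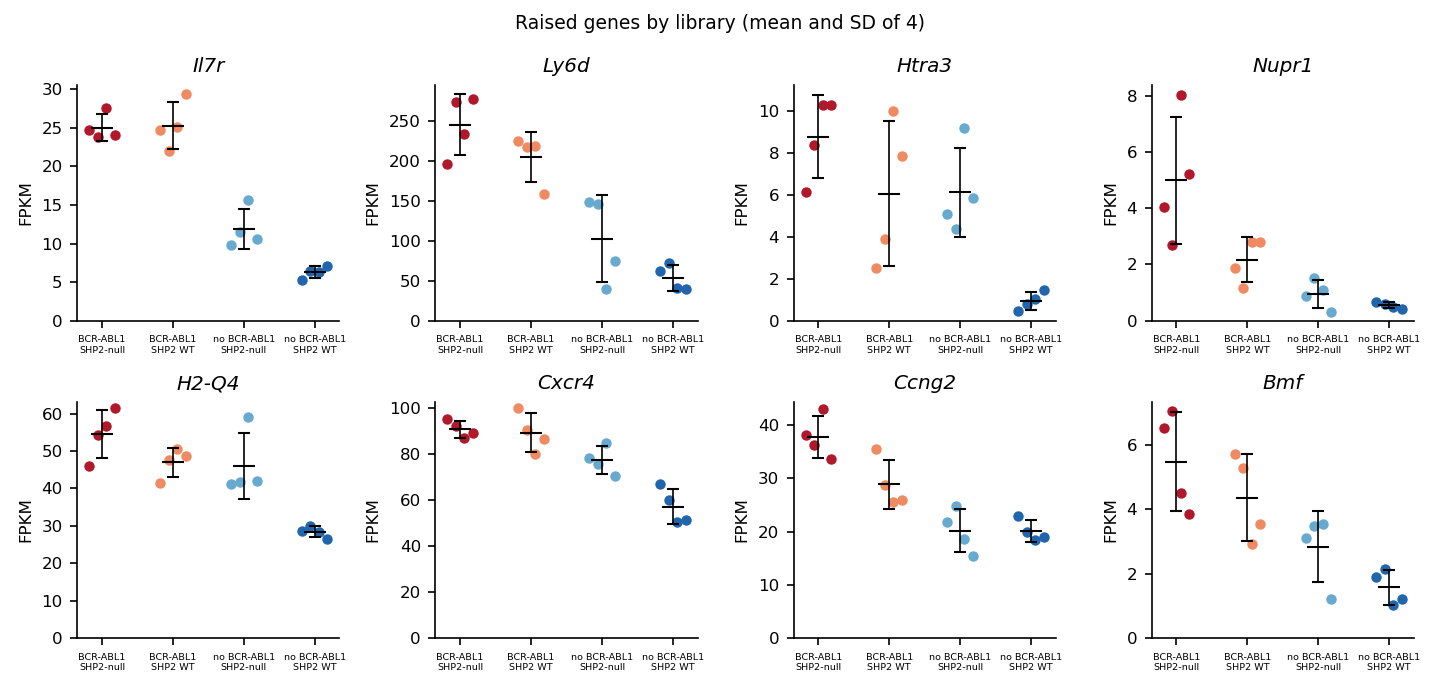
FPKM of 8 raised genes in all 16 libraries (vertical axes, FPKM, starting at 0). Points are libraries, and bars give the mean and SD of 4. Il7r is at a like level in both BCR-ABL1 groups (25.1 and 25.3 FPKM), while Ccng2 is highest in BCR-ABL1 SHP2-null cells (37.8 FPKM, against 20.1 FPKM in untransformed SHP2 wild-type cells).

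The largest called fall was Tmem119, a membrane protein best known from microglia and bone. It read 0.0568, 0.0505, 0.0965 and 0.0492 FPKM in BCR-ABL1 SHP2-null libraries, against 5, 10.3, 12.9 and 14.3 FPKM in untransformed SHP2 wild-type libraries (log2 change -3.37 ± 0.30, SE, limma adjusted p = 6.28e-06). It was close to 0 in every null library and passed the filter only through the wild-type libraries, so this p-value is descriptive. Cdh17, a cadherin of early B cells and gut epithelium, averaged 0.844 ± 0.405 FPKM in BCR-ABL1 SHP2-null cells and 15.5 ± 6.49 FPKM in untransformed SHP2 wild-type cells (SD, n = 4 each). Crip1, a small LIM-domain protein gene and the most abundant of the 15 largest falls, read 91.6, 127, 200 and 201 FPKM in BCR-ABL1 SHP2-null libraries, against 409, 571, 720 and 800 FPKM in untransformed SHP2 wild-type libraries. The lowest wild-type library was thus at more than the highest null library, and the log2 change was -2.03 ± 0.27 (limma adjusted p = 0.000223).

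Mgll, the enzyme that breaks down monoacylglycerols, averaged 0.794 ± 0.165 FPKM in BCR-ABL1 SHP2-null cells and 5.46 ± 1.42 FPKM in untransformed SHP2 wild-type cells. Bfsp2, a gene for a beaded filament protein known from the lens, averaged 6.86 ± 0.456 FPKM in BCR-ABL1 SHP2-null cells and 26.8 ± 4.89 FPKM in untransformed SHP2 wild-type cells (SD, n = 4 each). Tmed6 was listed at 0 in all 4 BCR-ABL1 SHP2-null libraries and at 1.25 to 5.4 FPKM in the 4 untransformed SHP2 wild-type libraries. Igj, the immunoglobulin joining chain gene, was at 0.382 to 0.846 FPKM in BCR-ABL1 SHP2-null libraries and at 3.84, 28.2, 2.23 and 5.09 FPKM in untransformed SHP2 wild-type libraries, where replicate 1 stood apart.

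Among the 15 largest falls, Tmem119, Hspb8 and Uchl1 lie on chromosome 5 with Ptpn11. Hspb8, a small heat shock protein gene (chr5:116408491-116422864, GRCm38), averaged 0.0469 ± 0.0316 FPKM in BCR-ABL1 SHP2-null cells, 0.0782 FPKM in untransformed SHP2-null cells, 6.67 FPKM in BCR-ABL1 SHP2 wild-type cells and 4.17 ± 2.16 FPKM in untransformed SHP2 wild-type cells. Uchl1, a neuronal ubiquitin hydrolase gene (chr5:66676091-66687234), read 3.16, 4.5, 3.98 and 17.2 FPKM in BCR-ABL1 SHP2-null libraries, against 22.9, 27.3, 24.6 and 25.2 FPKM in untransformed SHP2 wild-type libraries. Of 288 genes tested within 20 Mb of Ptpn11, 56 were called (19.4%), where 923 of 8899 genes elsewhere were called (10.4%). On chromosome 17 between 14 and 34 Mb, 30 of 207 were called (14.5%). These windows were set with earlier results known, and the part of position in the gene calls was not tested.

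Genes for antigen presentation were called in 1 direction. Of 21 MHC class I and II pathway genes tested, 10 rose and 0 fell (47.6% called, against 10.7% over all genes), with a median of 0.52. Nlrc5, the transcriptional activator of MHC class I, averaged 27.1 ± 1.15 FPKM in BCR-ABL1 SHP2-null cells and 19.1 ± 0.726 FPKM in untransformed SHP2 wild-type cells (SD, n = 4 each, limma adjusted p = 0.000145). Tap1, a subunit of the peptide transporter, averaged 40.4 ± 3.34 FPKM in BCR-ABL1 SHP2-null cells and 27.2 ± 1.72 FPKM in untransformed SHP2 wild-type cells. H2-K1, a classical class I heavy chain gene named after its values were seen, read 275, 309, 357 and 392 FPKM in BCR-ABL1 SHP2-null libraries, against 164, 204, 178 and 194 FPKM in untransformed SHP2 wild-type libraries. The groups were apart (log2 change 0.84 ± 0.16, limma adjusted p = 0.00268).

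H2-Q4 and H2-Q5, of the nonclassical class I cluster, averaged 54.7 ± 6.44 and 7.52 ± 1.72 FPKM in BCR-ABL1 SHP2-null cells, against 28.4 ± 1.46 and 2.61 ± 0.518 FPKM in untransformed SHP2 wild-type cells. H2-Q9 was among the 15 largest rises, at 5.12 ± 1.23 FPKM in BCR-ABL1 SHP2-null cells and 0.794 ± 0.271 FPKM in untransformed SHP2 wild-type cells. The H2-Q genes are near-identical copies, so the share of each is uncertain. With the replicate block 15 members of the MHC list rose and 1 fell, where 13.2% of all genes rose and 9.47% fell. In the class II presentation pathway, Cd74, the invariant chain, averaged 40.23 FPKM in BCR-ABL1 SHP2-null cells and 63.2 FPKM in untransformed SHP2 wild-type cells (limma adjusted p = 0.438).

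Of 14 interferon response genes tested, 6 rose and 0 fell (10 and 0 with the replicate block), with a median of 0.46. The 6 are 42.9% of the list, against 10.7% called over all genes. Ifitm3, an antiviral membrane protein gene, read 27.4, 26.3, 38.8 and 38.4 FPKM in BCR-ABL1 SHP2-null libraries, against 4.61, 9.84, 4.46 and 18.9 FPKM in untransformed SHP2 wild-type libraries. The groups did not overlap, although wild-type replicate 3 came near (log2 change 1.88 ± 0.40, SE, limma adjusted p = 0.00702). Ifi27l2a, an interferon-induced gene, averaged 36.4 ± 6.48 FPKM in BCR-ABL1 SHP2-null cells and 14 ± 5.67 FPKM in untransformed SHP2 wild-type cells (SD, n = 4 each). Irf9, a transcription factor of the interferon response, averaged 11.4 ± 1.32 FPKM in BCR-ABL1 SHP2-null cells and 6.22 ± 0.614 FPKM in untransformed SHP2 wild-type cells. Isg15 and Irf7, further members of the list, did not reach the filter.

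Among cell cycle inhibitor genes and FOXO targets, calls were mostly in 1 direction. Of 22 tested, 8 rose and 1 fell, with a median of 0.32 (12 and 2 with the replicate block). Calls without the block were 40.9% of the list, against 10.7% over all genes. Ccng2, an antiproliferative cyclin gene driven by FOXO factors, read 38.2, 36.4, 43.1 and 33.6 FPKM in BCR-ABL1 SHP2-null libraries, against 23, 20, 18.5 and 19 FPKM in untransformed SHP2 wild-type libraries (log2 change 0.88 ± 0.13, limma adjusted p = 0.000573). Each BCR-ABL1 SHP2-null library lay above each wild-type library. The CDK4 and CDK6 inhibitor gene Cdkn2d averaged 16.8 ± 1.47 FPKM in BCR-ABL1 SHP2-null cells and 10.3 ± 1.16 FPKM in untransformed SHP2 wild-type cells (SD, n = 4 each). Cdkn1b, which encodes p27, averaged 14 ± 1.01 FPKM in BCR-ABL1 SHP2-null cells and 10.1 ± 0.388 FPKM in untransformed SHP2 wild-type cells. The 1 called fall was Irs2, an insulin receptor adaptor gene, at 0.5611 FPKM in BCR-ABL1 SHP2-null cells and 1.439 FPKM in untransformed SHP2 wild-type cells (limma adjusted p = 0.00393). Of the 22 changes 19 were positive and 3 negative, among them that of Cdkn2a, a further inhibitor gene (log2 change -0.61, limma adjusted p = 0.0829).

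Of 34 DNA replication and E2F targets, 0 were called by limma and 3 had an unadjusted p below 0.05. Over all genes 10.7% were called, and 2593 of 10003 had an unadjusted limma p below 0.05. Of 26 mitosis genes, 2 rose (Nek2 and Kif23), which is 7.69%, against 6.64% higher over all genes, and 0 did without BCR-ABL1 SHP2-null replicate 2 or 3 or untransformed SHP2 wild-type replicate 2 or 3, while 1 did without BCR-ABL1 SHP2-null replicate 0 or untransformed SHP2 wild-type replicate 1. Myc averaged 29.7 ± 6.74 FPKM in BCR-ABL1 SHP2-null cells and 40.6 ± 7.8 FPKM in untransformed SHP2 wild-type cells (SD, n = 4 each), and limma gave an adjusted p of 0.157 (0.0269 with the block). Mxd4, an antagonist of MYC, read 9.76, 12.8, 11.9 and 16.1 FPKM in BCR-ABL1 SHP2-null libraries, against 5.97, 8.26, 8.05 and 8.4 FPKM in untransformed SHP2 wild-type libraries (limma adjusted p = 0.0177). The groups did not overlap, and the adjusted p was 0.0594 without BCR-ABL1 SHP2-null replicate 3. Mxd3, of the same family, averaged 13.2 ± 3.12 FPKM in BCR-ABL1 SHP2-null cells and 9.31 ± 0.945 FPKM in untransformed SHP2 wild-type cells, and its adjusted p of 0.0441 lay between 0.0672 and 0.129 without any 1 library other than BCR-ABL1 SHP2-null replicate 0.

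MYC targets and ribosome biogenesis genes were mostly lower. Of 40 tested, 39 had a negative change (4822 of 10003 over all genes), the median was -0.25, 5 fell and 0 rose. The 5 are 12.5% of the list, against 4.04% lower over all genes. Heatr1, needed for ribosomal RNA transcription, fell to 28.4 ± 1.9 FPKM in BCR-ABL1 SHP2-null cells, against 36.1 ± 1.24 FPKM in untransformed SHP2 wild-type cells (SD, n = 4 each, limma adjusted p = 0.0057). With the replicate block 17 fell, where 9.47% of all genes did. The count was 1 without BCR-ABL1 SHP2-null replicate 2, 3 without its replicate 3, and 2 without untransformed SHP2 wild-type replicate 1 or 3. Rn45s, the ribosomal RNA precursor, which is not polyadenylated, averaged 275 ± 153 FPKM in BCR-ABL1 SHP2-null cells and 716 ± 441 FPKM in untransformed SHP2 wild-type cells (adjusted p by limma 0.114, and 0.0231 with the block), and its part in this was not tested.

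**Figure D4:**
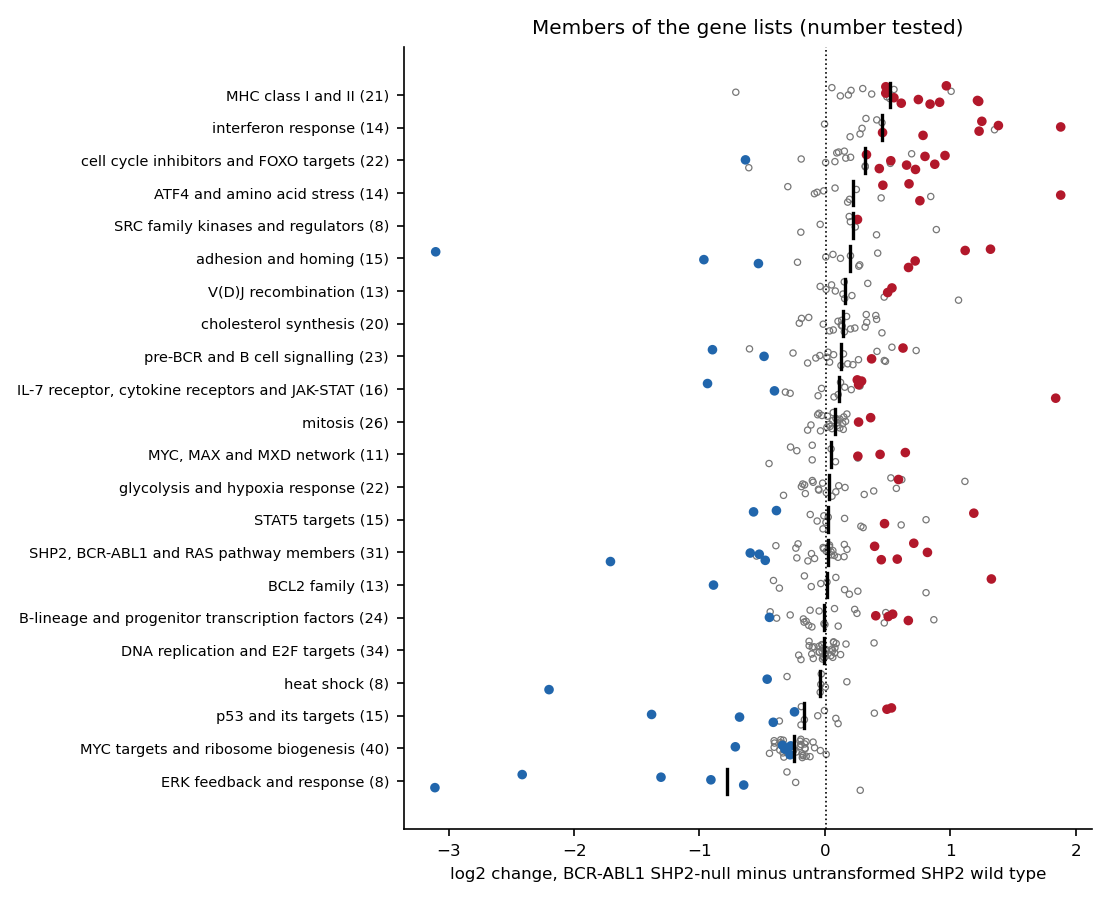
Change of each tested member of 22 gene lists on the log2(FPKM + 1) scale (horizontal axis), BCR-ABL1 SHP2-null minus untransformed SHP2 wild type. Filled red points were called higher, filled blue points called lower and open points not called. Black bars are list medians and the dotted line the median of all genes (0.01). The medians run from -0.78 for ERK feedback genes to 0.52 for MHC genes.

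Death and stress genes were mixed. Bmf, a BH3-only killer gene, read 6.54, 7.05, 4.5 and 3.86 FPKM in BCR-ABL1 SHP2-null libraries, against 1.91, 2.15, 1.03 and 1.2 FPKM in untransformed SHP2 wild-type libraries (log2 change 1.33 ± 0.25, limma adjusted p = 0.00267). Bok, another BCL2 relative, averaged 2.38 ± 0.0984 FPKM in BCR-ABL1 SHP2-null cells and 5.32 ± 1.12 FPKM in untransformed SHP2 wild-type cells. These were the 2 of 13 tested BCL2 family genes that were called, which is 15.4%, near the 10.7% over all genes. The count was 6 with the replicate block and 4 without untransformed SHP2 wild-type replicate 0. Of 15 p53 targets and partners, 2 rose and 4 fell (40% called, against 10.7% over all genes). Zmat3, an RNA-binding p53 target, averaged 1.14 ± 0.362 FPKM in BCR-ABL1 SHP2-null cells and 4.63 ± 1.31 FPKM in untransformed SHP2 wild-type cells (SD, n = 4 each, limma adjusted p = 0.00019), whereas Fas, the death receptor, averaged 1.51 ± 0.281 FPKM in BCR-ABL1 SHP2-null cells and 0.779 ± 0.181 FPKM in untransformed SHP2 wild-type cells.

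Of 14 genes of ATF4 and amino acid stress, 4 rose (Nupr1, Ddit3, Ddit4 and Atf5) and 0 fell, which is 28.6% called, against 10.7% over all genes. Because Nupr1 passed the filter only through the BCR-ABL1 SHP2-null libraries, the count is a description. Ddit3, which encodes CHOP, averaged 10 ± 2.32 FPKM in BCR-ABL1 SHP2-null cells and 5.42 ± 0.606 FPKM in untransformed SHP2 wild-type cells (SD, n = 4 each, limma adjusted p = 0.0044). Ddit4, an inhibitor of mTORC1, averaged 14 ± 1.18 FPKM in BCR-ABL1 SHP2-null cells and 8.45 ± 1.33 FPKM in untransformed SHP2 wild-type cells.

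Surface genes for adhesion and homing changed in both directions, with 4 of 15 higher and 3 lower (46.7% called, against 10.7% over all genes). Because Itgal passed the filter only through the untransformed SHP2 wild-type libraries, the count is a description. Cxcr4, the receptor that holds precursors in the marrow, read 94.9, 91.9, 86.6 and 88.9 FPKM in BCR-ABL1 SHP2-null libraries, against 66.7, 60, 50.2 and 51.2 FPKM in untransformed SHP2 wild-type libraries (log2 change 0.67 ± 0.09, limma adjusted p = 0.000348). The null libraries were all higher and closer together. Itga6, the laminin receptor alpha 6 chain, averaged 36.9 ± 2.65 FPKM in BCR-ABL1 SHP2-null cells and 22 ± 1.37 FPKM in untransformed SHP2 wild-type cells (SD, n = 4 each, limma adjusted p = 0.000116). Itgal, the alpha chain of LFA-1, averaged 0.759 ± 0.082 FPKM in BCR-ABL1 SHP2-null cells and 2.44 ± 0.281 FPKM in untransformed SHP2 wild-type cells (6.84e-05).

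Most B-lineage regulators were not called. Pax5, the B-lineage identity factor, averaged 63.82 FPKM in BCR-ABL1 SHP2-null cells and 66.55 FPKM in untransformed SHP2 wild-type cells (limma adjusted p = 0.851). Of 24 transcription factors tested, 4 rose (Sox4, Myb, Irf8 and Erg) and Lef1 fell, which is 20.8% called, against 10.7% over all genes. The replicate block called 8, where 22.7% of all genes were called. Sox4, which supports pro-B cell survival, averaged 27.1 ± 2.42 FPKM in BCR-ABL1 SHP2-null cells and 18.8 ± 2.56 FPKM in untransformed SHP2 wild-type cells (SD, n = 4 each). Myb, needed for early B cell development, averaged 120 ± 5.11 FPKM in BCR-ABL1 SHP2-null cells and 90.2 ± 7.26 FPKM in untransformed SHP2 wild-type cells. The count of called factors was 3 without BCR-ABL1 SHP2-null replicate 2 or 3 or untransformed SHP2 wild-type replicate 3, and 2 without untransformed SHP2 wild-type replicate 2.

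In the pre-B cell receptor pathway 4 of 23 genes were called (17.4%, against 10.7% over all genes), and 9 were with the replicate block, where 22.7% of all genes were. Cd72, an inhibitory coreceptor, averaged 34.1 ± 2.5 FPKM in BCR-ABL1 SHP2-null cells and 22.3 ± 6.09 FPKM in untransformed SHP2 wild-type cells (SD, n = 4 each, limma adjusted p = 0.00884). Lcp2, the SLP-76 adaptor, averaged 1.49 ± 0.43 FPKM in BCR-ABL1 SHP2-null cells and 3.62 ± 0.619 FPKM in untransformed SHP2 wild-type cells (0.00605). Blnk, an adaptor of the receptor, averaged 103 ± 9.57 FPKM in BCR-ABL1 SHP2-null cells and 79.2 ± 2.21 FPKM in untransformed SHP2 wild-type cells (limma adjusted p = 0.0173), and its adjusted p was 0.0559 without BCR-ABL1 SHP2-null replicate 2 and 0.0579 without its replicate 3. The count of the pathway was 2 without BCR-ABL1 SHP2-null replicate 2 or 3. Of 13 genes of V(D)J recombination and joining, Lig4, the end-joining ligase, and Xrcc6, which encodes Ku70, rose, and 1 did without BCR-ABL1 SHP2-null replicate 2 or 3. The 2 are 15.4% of that list, near the 10.7% called over all genes. With the replicate block 3 were called, where 22.7% of all genes were. Rag1, a recombinase subunit, averaged 10.1 ± 2.27 FPKM in BCR-ABL1 SHP2-null cells and 4.58 ± 2.5 FPKM in untransformed SHP2 wild-type cells (limma adjusted p = 0.148, and 0.0309 on the 8 libraries alone with the block).

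Markers of other cells were low, and a few differed between the groups. Cma1, a mast cell chymase gene, was listed at 0 in all 4 BCR-ABL1 SHP2-null libraries and at 2.1, 3.98, 3.29 and 2.52 FPKM in the untransformed SHP2 wild-type libraries. Cpa3, the mast cell carboxypeptidase, read 0.14, 0, 0.304 and 0.51 FPKM in BCR-ABL1 SHP2-null libraries, against 3.9, 6.76, 7.54 and 4.16 FPKM in untransformed SHP2 wild-type libraries. The 11 mast cell and basophil markers summed to 0.898 to 3.65 FPKM in BCR-ABL1 SHP2-null libraries and to 8.34 to 14.4 FPKM in untransformed SHP2 wild-type libraries, and 2 of the 11 passed the filter. In bulk libraries fewer cells of a type and less RNA per cell cannot be told apart.

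The 15 myeloid markers summed to 3.7 to 13.6 FPKM in BCR-ABL1 SHP2-null libraries and to 9.3 to 32.7 FPKM in untransformed SHP2 wild-type libraries with Mpo and Elane below the filter. Members differed in direction. Lyz2 read 2.33, 1.48, 5.51 and 4.41 FPKM in BCR-ABL1 SHP2-null libraries, against 6.53, 5.93, 28.2 and 12.5 FPKM in untransformed SHP2 wild-type libraries (limma adjusted p = 0.306, and 0.00124 on the 8 libraries alone with the block). S100a8 and S100a9, genes of a calcium-binding pair of neutrophils and monocytes, reached 2.31 and 3.44 FPKM in BCR-ABL1 SHP2-null libraries, against at most 0.325 and 0.102 FPKM in untransformed SHP2 wild-type libraries, and did not pass the filter. The 13 T and NK cell markers summed to 2.86 to 3.93 FPKM in BCR-ABL1 SHP2-null libraries and to 1.19 to 1.77 FPKM in untransformed SHP2 wild-type libraries. Of these only Cd28 passed the filter, at 1.97, 1.56, 1.23 and 1.11 FPKM in BCR-ABL1 SHP2-null libraries, against 0.152, 0.338, 0.0928 and 0.367 FPKM in untransformed SHP2 wild-type libraries, while Cd3d, Cd3e and Cd8a stayed below 1 FPKM in all 8 libraries. The part of other cells in the changes above was not tested.

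The groups with 1 change place these differences. In the same fit BCR-ABL1 changed 452 genes (4.52%) in SHP2 wild-type cells and 117 (1.17%) in SHP2-null cells, and SHP2 loss changed 27 (0.27%) with BCR-ABL1 and 148 (1.48%) without it. With the replicate block BCR-ABL1 changed 1198 genes (12.0%) in SHP2 wild-type cells and 522 (5.22%) in SHP2-null cells, and SHP2 loss changed 44 (0.44%) with BCR-ABL1 and 605 (6.05%) without it. With array weights they were 816 and 1838 for BCR-ABL1, which turns their order, and 38 and 666 for SHP2 loss. The count for BCR-ABL1 in SHP2 wild-type cells was 247, 297 or 295 without BCR-ABL1 SHP2 wild-type replicate 0, 2 or 3, and 224 or 285 without untransformed SHP2 wild-type replicate 2 or 3. In SHP2-null cells it was 52 or 47 without BCR-ABL1 SHP2-null replicate 0 or 2, and 61 or 58 without untransformed SHP2-null replicate 0 or 3. For SHP2 loss without BCR-ABL1 it was 77 or 98 without untransformed SHP2 wild-type replicate 2 or 3. Without untransformed SHP2-null replicate 2, the library high in Lyz2, the counts were 619 and 163 for BCR-ABL1 in SHP2 wild-type and SHP2-null cells, and 27 and 100 for SHP2 loss with and without BCR-ABL1. These comparisons share libraries with each other and with the comparison of both factors, so their values stand side by side only.

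Il7r averaged 25.1 ± 1.76 FPKM in BCR-ABL1 SHP2-null cells, 25.3 ± 3.09 FPKM in BCR-ABL1 SHP2 wild-type cells, 11.9 ± 2.58 FPKM in untransformed SHP2-null cells and 6.29 ± 0.754 FPKM in untransformed SHP2 wild-type cells (SD, n = 4 each). The first pair in that order did not differ beyond their spread. SHP2 loss gave a log2 change of -0.01 with BCR-ABL1 (limma adjusted p = 1) and of 0.81 without it (0.00254). Dusp6 averaged 0.406 FPKM in BCR-ABL1 SHP2-null cells, 0.873 FPKM in BCR-ABL1 SHP2 wild-type cells, 3.72 FPKM in untransformed SHP2-null cells and 11.3 FPKM in untransformed SHP2 wild-type cells, with a log2 change of -0.41 for SHP2 loss with BCR-ABL1 (adjusted p = 1) and of -1.46 without it (0.00434). For Ccng2 the log2 change of SHP2 loss was 0.38 with BCR-ABL1 (adjusted p = 0.971) and -0.01 without it (0.968). Without untransformed SHP2-null replicate 2, SHP2 loss without BCR-ABL1 gave 0.68 for Il7r (limma adjusted p = 0.00315) and -1.13 for Dusp6 (0.000706).

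A test of whether the factors add, the interaction, called 0 of 10003 genes by limma, and 579 had an unadjusted p below 0.05. It called 3 genes with no filter on low values and 2 with array weights. For Il7r the interaction was -0.82 ± 0.17 (SE, unadjusted p = 0.000229, limma adjusted p = 0.382), and for Dusp6 it was 1.05 ± 0.34 (0.00741 and 0.757). A difference between the backgrounds was therefore not called for either gene.

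Glycolysis and hypoxia response genes had a median of 0.03 with both factors changed. Only 1 of 22 was called (4.5%, against 10.7% over all genes), Vegfa, the vascular growth factor. For BCR-ABL1 the median was -0.36 in SHP2 wild-type cells and 0.47 in SHP2-null cells, and 0.36 for SHP2 loss with BCR-ABL1 and -0.45 without it. These medians carry no test. Ldha, the lactate dehydrogenase gene, read 446, 430, 833 and 705 FPKM in BCR-ABL1 SHP2-null libraries, against 440, 515, 681 and 945 FPKM in untransformed SHP2 wild-type libraries. The spread within each group was wider than the difference between them. Vegfa averaged 48.1 ± 4.01 FPKM in BCR-ABL1 SHP2-null cells and 31.9 ± 4.38 FPKM in untransformed SHP2 wild-type cells (SD, n = 4 each, limma adjusted p = 0.0208), a call lost without BCR-ABL1 SHP2-null replicate 1 (0.0536) or 2 (0.0519) and without untransformed SHP2 wild-type replicate 2 (0.0738) or 3 (0.0567). Of 20 cholesterol synthesis genes, 0 were called by limma and 2 had an unadjusted p below 0.05, with a median of 0.15. Over all genes 10.7% were called, and 2593 of 10003 had an unadjusted limma p below 0.05.

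**Figure D5:**
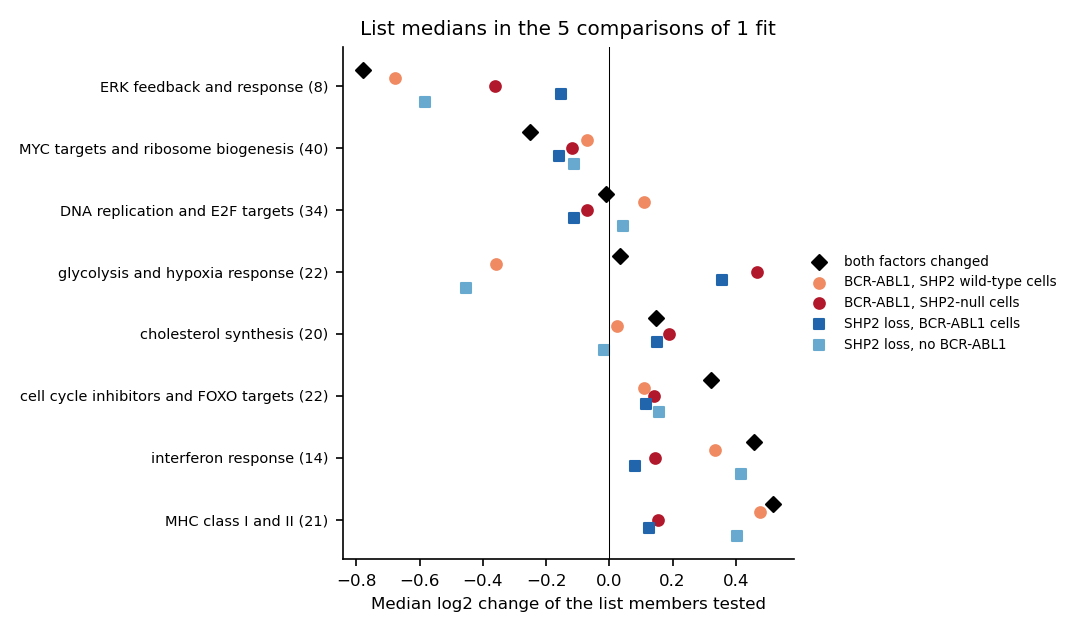
Median change of 8 gene lists (horizontal axis, log2 scale) in the comparison of both factors (black diamonds) and in the 4 comparisons of 1 factor (circles for BCR-ABL1, squares for SHP2 loss). For ERK feedback genes the medians are -0.78 with both factors, -0.68 for BCR-ABL1 among SHP2 wild-type cells and -0.58 for SHP2 loss without BCR-ABL1. For glycolysis genes the medians of 1 factor lie on both sides of 0.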

How the data were processed

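Paired-end RNA-seq was made from polyadenylated RNA of 16 mouse pre-B samples. The authors deposited FPKM values by gene symbol. Bowtie, Cufflinks and mm10 (GRCm38) were used, per the submitters' processing notes. Versions, annotation, strand use and scaling between libraries: not given in the sources used here. FPKM keep no counts, so depth is unknown, whole reads were not recovered and no counting interval can be given.

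Entries of the same symbol were summed (23758 entries, 23279 symbols). Genes at 1 FPKM or more in 4 or more of the 8 libraries entered the test on log2(FPKM + 1), which understates changes of low genes, and fold changes on the log2 scale use that pseudocount of 1. A limma fit of 4 group means over 16 libraries with a trended prior variance gave all comparisons, two-sided, with Benjamini-Hochberg adjustment over 10003 genes and calls at an adjusted p below 0.05. R 4.3.3, limma 3.58.1, Python 3.11.15, pandas 2.3.3, scipy 1.17.1 and matplotlib 3.10.9 were used, and the fit was tested on simulated data. Gene positions came from GENCODE M21, which matched 9395 of the genes tested.

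The genes, lists and tests were chosen with earlier results of these data known. Named were Ptpn11, Abl1, Bcr, Dusp6, Myc, Mxd3 and Mxd4, the 15 largest called rises and falls without overlap between groups, and up to 4 members of each list by smallest p. Spry1, H2-K1, Rag1, Ldha, Cish, Socs2, Dntt, Ms4a1, Cd38 and genes given only as means (such as Igll1, Pax5, Cd74, Irs2, Dusp5 and Spry2) were added after their values were seen. Some genes under the rule were left out for length.

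Per the labels' protocols, each sequencing set held 1 library of every group. Same-number libraries of these groups deviated together from their group means (correlations 0.24 to 0.677, against -0.693 to 0.337 for different numbers), so replicate numbers were taken to pair libraries. The ranges overlap. BCR-ABL1 SHP2-null replicate 2 correlated at 0.24 with untransformed SHP2 wild-type replicate 2 and at 0.312 with replicate 3. Pairing by number is thus an inference, and the labels do not tie the numbers to sequencing sets. Alternatives were another pseudocount, other filters, the 8 libraries alone, the replicate block, array weights, quantile and median-ratio scaling, the largest entry per symbol, each library left out in turn and, added after seeing the data, a correction for GC content.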

Additional observations from a re-analysis of the deposited data

Results flagged for a closer look

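In 230 groups of 4 libraries examined for the named genes, 13 had 1 library far from the other 3 by Dixon's ratio of gap to range. Chance flags about 1 in 20 groups. The libraries were spread over both groups, with 7 among the BCR-ABL1 SHP2-null and 6 among the untransformed SHP2 wild-type libraries.

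Among BCR-ABL1 SHP2-null libraries, Uchl1 read 17.2 FPKM in replicate 3, against 3.16 to 4.5 FPKM in the others. Tmem119 read 0.0965 FPKM in replicate 2, against 0.0492 to 0.0568 FPKM. Fas, the death receptor gene, read 1.93 FPKM in replicate 2, against 1.35 to 1.39 FPKM. Bok read 2.52 FPKM in replicate 1, against 2.31 to 2.34 FPKM. In replicate 0, Polr1b and Utp20, ribosome production genes, read 18.6 and 19.7 FPKM, against 15.9 to 16.2 and 16.3 to 16.9 FPKM, and the mitosis gene Kif23 read 36.6 FPKM, against 34.2 to 34.4 FPKM.

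Among untransformed SHP2 wild-type libraries, Igj read 28.2 FPKM in replicate 1, against 2.23 to 5.09 FPKM in the others. H2-Q9 and Nlrc5 read 1.2 and 20.1 FPKM in replicate 1, against 0.623 to 0.68 and 18.5 to 18.8 FPKM. Mxd4 read 5.97 FPKM in replicate 0, against 8.05 to 8.4 FPKM. Kif23 read 31.8 FPKM in replicate 0, against 27.4 to 28.1 FPKM, and Utp20 read 19.8 FPKM in replicate 2, against 21.4 to 21.6 FPKM.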

How the results depend on the processing

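Without the filter on low values the count of changed genes was 1299, with pseudocount 0.1 it was 1078, with the 8 libraries alone 900, with quantile normalization 1200, with median-ratio scaling 1184 and with the GC correction, which was added after seeing the data, 1497. A mean of at least 5 FPKM left 7134 genes and gave 544. The replicate block gave 2269, or 2367 with the 8 libraries alone, and array weights gave 1864. Leaving out each of the 8 compared libraries in turn gave 625 to 1135 changed genes, and leaving out each of the other 8 libraries of the fit gave 976 to 1283, the highest without untransformed SHP2-null replicate 2. The interaction count of 0 became 3 with no filter and 2 with array weights, and ran from 0 to 1 with each library left out. The cause of these differences was not tested. The Ptpn11 difference ran from -12.8 to -11.9 FPKM with each library left out. Of 115 named genes 95 were called. Of these, 66 kept the call under every alternative run and 29 lost it under at least 1. No named gene turned its direction where it was called in the main fit or in the alternative. Turns of genes called in neither were not counted. Under the replicate block no named call was lost and 5 were gained, for Myc (0.0269), Socs2 (0.0269), E2f2 (0.00543), Mvk (0.0455) and Rn45s (0.0231), and it changed no other named call. On the 8 libraries alone the block also called Mcm2 (0.0468), Sdc1 (0.0164), Lyz2 (0.00124), Rag1 (0.0309) and Dntt (0.00728). Counts within gene lists moved by over 1.5 times as follows. A mean of at least 5 FPKM left 3 of 9 RAS calls, 2 of 5 ERK, 0 of 4 STAT5, 0 of 2 BCL2, 2 of 6 p53, 3 of 6 interferon and 2 of 4 ATF4 calls. Array weights gave 8 STAT5, 16 MYC target, 9 transcription factor, 4 V(D)J, 7 BCL2 and 10 interferon calls. MYC targets had 9 calls with quantile normalization, 10 with median-ratio scaling and 12 with the GC correction, and the BCL2 family had 4 with either scaling. STAT5 targets had 0 calls with no filter and 2 with the 8 libraries alone. Changes too small for the spread of 4 libraries were not detectable, and low genes carry an unknown number of reads.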

Other observations

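Some B-lineage genes differed by replicate number in both groups. Dntt, the enzyme that adds bases at immunoglobulin gene joins, read 37.3 and 30.5 FPKM in BCR-ABL1 SHP2-null replicates 0 and 1 and 131 and 130 FPKM in replicates 2 and 3, against 32.1 and 21.3 FPKM in untransformed SHP2 wild-type replicates 0 and 1 and 82.8 and 89.2 FPKM in replicates 2 and 3. Ms4a1, the CD20 gene of more mature B cells, ran the other way, at 8.95, 6.58, 3.06 and 3.75 FPKM in BCR-ABL1 SHP2-null replicates 0 to 3 and at 21, 12.6, 2.6 and 1.63 FPKM in untransformed SHP2 wild-type replicates 0 to 3. Neither was called by limma (adjusted p = 0.758 and 0.876), but Dntt, higher in the BCR-ABL1 SHP2-null library at every replicate number, was called with the replicate block on the 8 libraries alone (0.00728). Cd38, an ectoenzyme of B-lineage cells, was also higher in replicates 0 and 1, but its groups did not overlap, with 10.5, 7.62, 5.82 and 5.69 FPKM in BCR-ABL1 SHP2-null replicates 0 to 3, against 3.71, 2.9, 1.78 and 1.26 FPKM in untransformed SHP2 wild-type replicates 0 to 3 (limma adjusted p = 0.0112). These genes were chosen after their values were seen.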
